A study of Rattus norvegicus with 24 samples.

Results

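The steroid hormone receptors other than the androgen receptor were followed in rats given dihydrotestosterone (DHT): the estrogen receptors alpha (Esr1) and beta (Esr2), the progesterone receptor (Pgr), the glucocorticoid receptor (Nr3c1) and the mineralocorticoid receptor (Nr3c2). Members were the probes whose accession matched one of these 5 symbols, which gave 5 of the 36955 genes and 7 of the 41012 probes of the array, with 2 probes each for Nr3c1 and Nr3c2 and 1 each for the others. RNA came from prostate, skin and forebrain of castrated male Sprague-Dawley rats and from ovary of intact females of the same strain, all 12 weeks old, per the sample labels, which were followed although the design text of the series names castrated males for every tissue. Castration of the males preceded dosing by 3 days. Each animal then received DHT at 10 mg/kg or vehicle once by intraperitoneal injection, the females with their ovaries in place, and tissue was taken 16 h later. Each of the 8 groups had 3 one-colour arrays, which the series text calls biological replicates, and forebrain vehicle array 3, marked in its label as having failed quality control, did not enter the fits, which leaves 23 arrays out of 24. All male groups share castration, and the ovary groups differ from them in sex and in having gonads, so that tissue and sex cannot be told apart for ovary. The questions asked here were how the level of each receptor differed between tissues and whether DHT changed it.

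Steroid receptors are transcription factors that bind a hormone, pair up and attach to response elements in DNA. Esr1 and Esr2 bind estradiol, and Pgr, itself a known target of estrogen receptors, binds progesterone. Nr3c1 and Nr3c2 bind corticosterone in the rat, and Nr3c2 also binds aldosterone, where the enzyme Hsd11b2 inactivates corticosterone. DHT is an androgen that aromatase does not convert to an estrogen. In prostate Esr2 is known as the estrogen receptor of the epithelium and Esr1 as that of the stroma, and in ovary Esr2 is known from granulosa cells and Esr1 from theca and stroma.

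The promoters of both estrogen receptors are shown because the background calls of their probes differed in which tissues they passed. The Esr1 probe was well above background on 3 of 6 skin and 0 of 6 prostate arrays. That of Esr2 was on 0 of 6 skin and 5 of 6 prostate arrays. Each gene had 1 probe, so its calls compare tissues and not the 2 genes. The sequences are from RefSeq on the GRCr8 assembly, which was matched for 4 of the 5 receptors. They hold the 250 bases before the annotated start, 5′ to 3′ on the strand of the gene, with CpG dinucleotides in capitals. Esr1 lies at chr1:43641845-43642094 on the plus strand, and Esr2 at chr6:100644710-100644959 on the minus strand.
Esr1: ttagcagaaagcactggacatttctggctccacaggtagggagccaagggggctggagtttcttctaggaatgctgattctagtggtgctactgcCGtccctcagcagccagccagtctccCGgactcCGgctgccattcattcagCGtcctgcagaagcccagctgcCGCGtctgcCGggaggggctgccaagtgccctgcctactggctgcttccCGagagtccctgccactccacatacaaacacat
Esr2: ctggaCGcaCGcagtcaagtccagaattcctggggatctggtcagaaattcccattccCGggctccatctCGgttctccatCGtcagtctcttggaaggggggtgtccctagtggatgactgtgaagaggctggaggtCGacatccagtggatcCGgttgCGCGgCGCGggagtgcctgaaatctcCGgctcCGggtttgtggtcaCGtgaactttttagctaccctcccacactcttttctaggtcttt
The Esr1 window held 8 CpG and the Esr2 window 14, against a median of 5 over 33469 promoters. The half-site AGAACA of androgen, glucocorticoid and progesterone receptors was searched on both strands, as was AGGTCA, the half-site of estrogen receptors. Neither occurred in these windows or in those of Pgr and Nr3c1, while 17.5% of all promoter windows held AGAACA and 14.1% held AGGTCA. The absence says only that these letters are not in these windows.

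Levels are log2 of the processed spot intensity minus the 75th percentile of the same array, so a level of 0 is as bright as that percentile, and levels of different probes cannot be set against each other. A probe counts as measured where the scanner software called it well above background. Between 54.6% and 97.0% of probes were well above background on the arrays used, and replicates correlated at 0.912 to 0.989. Skin arrays were dim, with a 75th percentile of intensity of 55.4 to 378.9, against 486.2 to 2376 on the other arrays used. Ovary vehicle arrays 1 and 3 had a narrow range of levels (interquartile range 3.78 and 3.20). Prostate vehicle array 3 (4.99) and forebrain DHT array 1 (5.01) came next, against 5.16 to 6.82 on the other arrays used. Forebrain DHT array 1 also had 87.5% of probes well above background, against 65.3% and 72.5% on forebrain DHT arrays 2 and 3. This touches each DHT comparison in ovary, prostate and forebrain. Vehicle arrays lay on slides 1 to 3 and DHT arrays on slides 4 to 6, with 1 array of each tissue per slide, so that DHT and slide cannot be told apart, whereas tissues were compared within slides. Most marker lists were highest in the tissue of their label: on vehicle arrays, theca and luteal markers averaged 2.78 in ovary against -5.35 in prostate, neuronal markers 2.80 in forebrain against -6.07 in prostate, and keratinocyte markers 5.33 in skin against 0.19 in prostate. The exception was the list of prostate secretory epithelium, which averaged -4.51 in vehicle prostate and -3.18 in vehicle ovary, while simple epithelial markers averaged 6.20 in vehicle prostate and 1.97 in vehicle ovary. In whole tissue, fewer cells that express a receptor and less RNA per cell cannot be told apart.

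**Figure D1:**
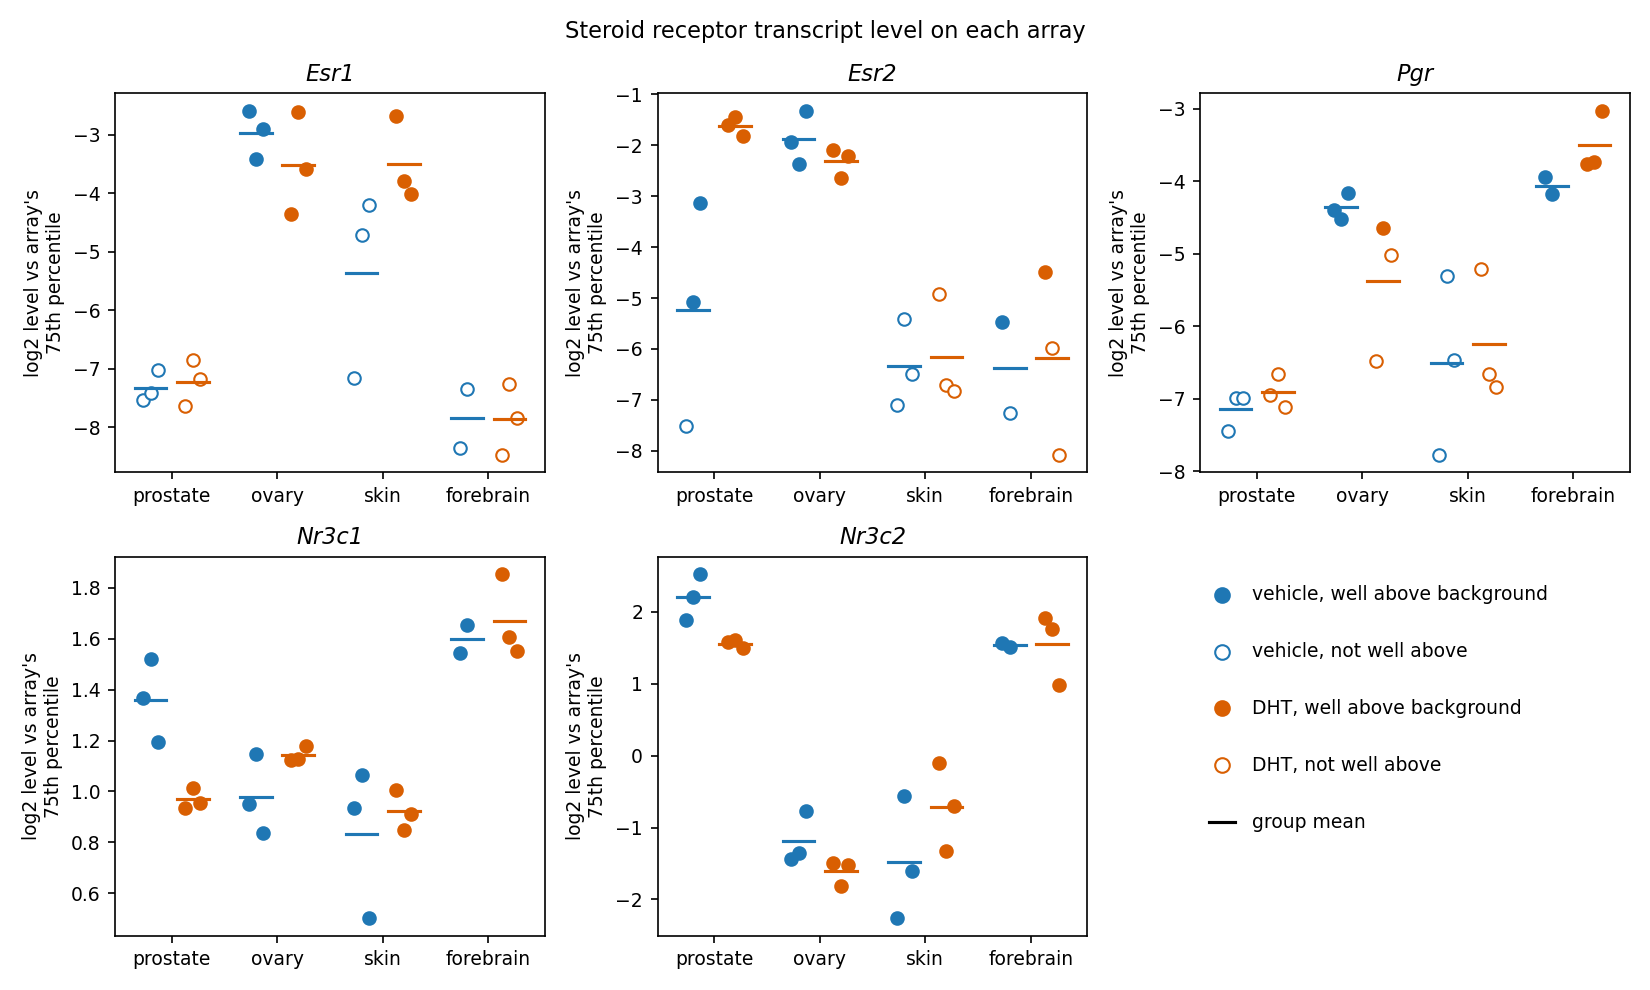
Level of each receptor on each of the 23 arrays, by tissue and treatment, as log2 relative to the 75th percentile of the array, with the probe used for tissue comparisons. Filled circles were well above background, open circles were not, and bars are group means; Esr2 in prostate lies between -7.50 and -3.12 on vehicle arrays and between -1.82 and -1.44 on DHT arrays.

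Esr1 was well above background in ovary and, with DHT, in skin, and on no array of prostate or forebrain. Its level in ovary ran from -4.35 to -2.59 with a median of -3.16 and was well above background on 6 of 6 arrays. In skin it ran from -7.15 to -2.68 (median -4.11), and was well above background on the 3 DHT arrays and on none of the 3 vehicle arrays. On prostate (-7.63 to -6.85) and forebrain (-8.47 to -7.26) no array passed the background call. Skin was at least 1.67-fold above prostate and at least 2.48-fold above forebrain, in levels relative to each array. The skin mean behind these bounds includes 3 vehicle arrays not well above background. Before scaling, Esr1 intensity was 8.64 to 12.99 on skin DHT arrays and 2.67 to 7.86 on skin vehicle arrays. It was 2.45 to 12.06 on prostate arrays and 2.82 to 7.10 on forebrain arrays. Skin and prostate thus overlapped in unscaled intensity, so the skin bound over prostate rests on the scaling to each array. Ovary was at least 3.79-fold above prostate and at least 5.64-fold above forebrain. The fitted differences, which use values below background, were -4.03 for prostate minus ovary and 4.58 for ovary minus forebrain. Their adjusted p-values were 4.7e-07 and 1.2e-07 in limma with Benjamini-Hochberg adjustment and do not test the bounds. The bounds hold for the reported processing only: under alternative settings these differences ran from -4.35 to -0.69 and from 1.14 to 4.83. Ovary exceeded skin by 1.18 ± 0.42 (SE) on the log2 scale (adjusted p = 0.0245 in limma, n = 6 each), but the skin mean includes 3 vehicle arrays that were not well above background. Over DHT arrays, where both tissues were measured, the difference was -0.02, and over all arrays it was -1.11 (adjusted p = 0.0089) after normexp background correction, which adds an offset of 50 to every spot. These tissue differences stand against a background of many: 43.6% of 33832 genes differed between prostate and ovary, 59.2% between prostate and skin, 57.1% between prostate and forebrain, 55.1% between ovary and skin, 55.2% between ovary and forebrain and 64.9% between skin and forebrain.

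Esr1 on the skin arrays was -7.15, -4.72 and -4.20 with vehicle and -2.68, -3.79 and -4.02 with DHT. The lowest DHT value was above the highest vehicle value, in a gene that entered the test only through its 3 DHT arrays, so that this order and the difference are no independent support. The difference was 1.86 ± 0.80 (SE; 95% interval -0.05 to 3.78), and did not pass (adjusted p = 0.752 in limma, n = 3 each). With the vehicle arrays held at the background limit, the group means differed by 1.93-fold (0.95 on the log2 scale). The limit of vehicle array 2, -3.36, lay above the DHT values -3.79 and -4.02. Under alternative settings the difference ran from 0.40 to 2.44, so the 1.93-fold is no floor on the effect. In skin 0% of 24122 genes passed, 4.94% had an unadjusted p under 0.05, and 12.3% had groups that did not overlap (6.07% higher and 6.19% lower with DHT). Skeletal muscle markers differed in mean between the same arrays: all 6 tested were higher with DHT, with a median of 4.24. However, 0 of 6 had groups that did not overlap, and their summed level (log2) was 2.44 to 12.72 on vehicle and 9.96 to 14.17 on DHT arrays. The mean of the list was -1.46 on the lowest vehicle array and 10.03 on the highest, and averaged 6.16. On DHT arrays it was 8.91 to 11.42, so that the lowest vehicle array carried this value. Hair follicle markers were lower in 4 of 4 tested, 1 of them without overlap, with a median of -2.22. Their summed level was 3.29 to 3.99 on vehicle and -1.35 to 2.72 on DHT arrays. The mean of this list was -3.99 on the lowest DHT array and -0.34 on the highest, and averaged -1.67. On vehicle arrays it was -0.15 to 0.89. The simple epithelial genes Krt18 (-2.25 ± 0.40) and Krt19 (-1.51 ± 0.32) were lower without overlap, and none of these genes passed the test. The part of these markers in the result was not tested. Without vehicle array 1, the lowest for Esr1, the Esr1 difference was 0.97.

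In ovary Esr1 was -2.59, -3.41 and -2.90 with vehicle and -4.35, -2.62 and -3.59 with DHT. The groups overlapped, and the difference was -0.55 ± 0.49 (adjusted p = 0.684 in limma, n = 3 each). In ovary 0% of 29399 genes passed, 10.5% had an unadjusted p under 0.05, and 13.8% had groups that did not overlap (2.7% higher, 11.1% lower). Without vehicle array 2, which leaves only the narrow-range vehicle arrays 1 and 3, 7578 genes passed. The median of all genes was itself -0.23 in ovary, and with the median of the array as the reference, which puts that median at 0.46, the Esr1 difference was 0.13.

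Esr2 was bright in ovary on every array and in prostate mainly after DHT. Its level in ovary ran from -2.63 to -1.32 (median -2.15), with 6 of 6 arrays well above background. In prostate it ran from -7.50 to -1.44 (median -2.47), with 5 of 6 above background. In skin (-7.11 to -4.92) no array was above background, and in forebrain (-8.08 to -4.49) 2 of 5 were. Ovary was at least 4.87-fold above skin and prostate at least 1.93-fold above skin. The fitted differences, which use skin values below background, were 4.15 and 2.82 on the log2 scale (adjusted p = 2.4e-05 and 9.6e-04 in limma). These p-values do not test the bounds. Ovary exceeded forebrain by 4.15 ± 0.68 and prostate exceeded forebrain by 2.81 ± 0.68 on the log2 scale (adjusted p = 4.6e-05 and 0.00163 in limma), measured against a forebrain mean in which 3 of 5 arrays were not well above background. The differences from skin did not hold under normexp, at -0.10 for ovary and -0.21 for prostate. Prostate minus ovary was -1.34 ± 0.64 over both treatments (adjusted p = 0.104 in limma). By treatment it was -3.37 ± 0.90 over vehicle arrays (adjusted p = 0.00730 in limma) and 0.69 ± 0.90 over DHT arrays (adjusted p = 0.631 in limma).

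The prostate arrays themselves show the largest shift of any receptor. Esr2 was -7.50, -5.08 and -3.12 on the vehicle arrays, of which the first was not well above background, and -1.61, -1.44 and -1.82 on the DHT arrays. The SD was 2.19 over the vehicle arrays and 0.19 over the DHT arrays, and the groups did not overlap. The difference was 3.62 ± 1.01 (SE; 95% interval 1.19 to 6.04), a fitted 12.3-fold, and missed the threshold with an adjusted p of 0.0750 in limma (n = 3 each). In prostate 9.64% of 23738 genes passed the test, of which those above vehicle were 5.03% and those below it 4.61% of all tested, and 35.8% had groups that did not overlap (19.3% higher, 16.5% lower). Of the 3 receptors tested in prostate, 0 passed and all 3 had groups that did not overlap.

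Esr2 was higher with DHT under all 15 alternative settings and passed under 5. It passed with quantile normalization (adjusted p = 0.0489), with the array median (0.0275), with array weights (0.0183), in the fit of all tissues (0.0395) and without vehicle array 3 (0.0155), all in limma. Under the other settings the adjusted p was between 0.0578 and 0.265. Vehicle array 3, whose range of levels was narrow and which had 1531 outlier spots, held the highest vehicle value, and without it the difference was 4.67 ± 0.67. Without vehicle array 1, the array at background, it was 2.48 ± 0.56. The size depends on the background correction, since normexp gave 1.06 ± 0.42.

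**Figure D2:**
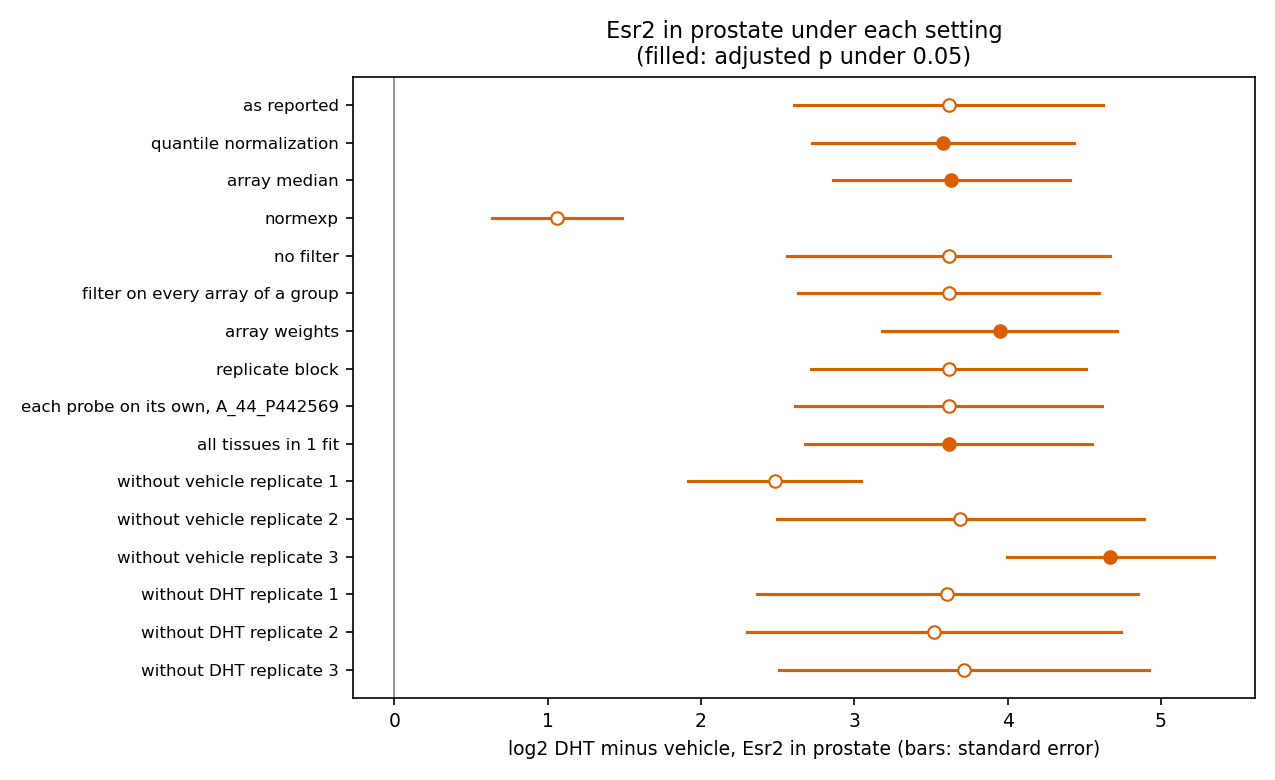
Difference of Esr2 between DHT and vehicle in prostate on the log2 scale under the setting reported and 15 alternatives; bars are standard errors and filled circles passed an adjusted p of 0.05. All values lie above 0, from 1.06 with normexp to 4.67 without vehicle replicate 3, and 5 alternatives pass.

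Markers of several cell types differed between the same prostate arrays. Pbsn, the androgen-dependent secretory protein probasin, rose from a mean level of -3.81 to 2.04 (difference 5.85 ± 0.31, adjusted p = 0.00325 in limma). Among simple epithelial markers 2 of 6 fell, namely Krt19 (-1.41 ± 0.22) and Krt8 (-0.99 ± 0.21), with a median of -0.56 for the list. Their summed level (log2) was 8.68 to 9.38 on vehicle and 7.73 to 9.19 on DHT arrays. Among adipocyte markers 5 of 6 rose, with a median of 1.29 and a summed level (log2) of 6.04 to 6.26 on vehicle and 7.06 to 7.86 on DHT arrays. Over all 23738 genes tested in prostate, 5.03% rose and 4.61% fell. The part of these markers in the result for Esr2 was not tested.

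In ovary Esr2 was -1.93, -2.36 and -1.32 with vehicle and -2.09, -2.63 and -2.22 with DHT, with overlapping groups and a difference of -0.45 ± 0.34 (adjusted p = 0.628 in limma). The effect in prostate exceeded that in ovary by 4.06 ± 1.28, that in skin by 3.43 ± 1.28 and that in forebrain by 3.51 ± 1.36. None of these passed (adjusted p = 0.127, 0.226 and 0.273 in limma, where 1.34%, 1.61% and 0.925% of 33832 genes passed), so a difference of the Esr2 response between tissues was not shown. The skin and forebrain contrasts rest on tissues where Esr2 was well above background on 0 of 6 and 2 of 5 arrays, so its effect there was mostly not measured.

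Pgr was highest in forebrain. Its level there ran from -4.18 to -3.02 (median -3.76) with 5 of 5 arrays above background. In ovary it ran from -6.47 to -4.17 (median -4.58), with 4 of 6 arrays above background, and in prostate (-7.44 to -6.65) and skin (-7.78 to -5.22) none was. Forebrain was at least 2.61-fold above prostate and at least 1.51-fold above skin, and ovary at least 1.23-fold above prostate. The fitted differences were -3.25 for prostate minus forebrain, -2.60 for skin minus forebrain and -2.155 for prostate minus ovary (adjusted p = 1.5e-06, 1.8e-05 and 1.4e-04 in limma). These p-values do not test the bounds. Under alternative settings prostate minus forebrain ran from -3.40 to -0.54. Ovary minus forebrain was -1.09 ± 0.40 on the log2 scale (adjusted p = 0.0287 in limma), with -0.31 over vehicle arrays, which did not pass (adjusted p = 0.685), and -1.87 over DHT arrays, which did (0.00779). Prostate and skin, both at background, gave an adjusted p of 0.155. Ovary minus skin was 1.51 ± 0.38 (adjusted p = 0.00238 in limma), but no bound on a fold could be given. Normexp turned the sign of prostate minus ovary (0.28), ovary minus skin (-1.78) and skin minus forebrain (0.97), and the last 2 passed in that direction (adjusted p = 1.1e-04 and 0.0184 in limma), against the bound for forebrain over skin.

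Pgr moved in opposite directions in ovary and forebrain, without passing in either. In ovary it was -4.39, -4.51 and -4.17 with vehicle, all well above background, and -6.47, -4.64 and -5.01 with DHT, of which only the second was. Pgr thus entered the ovary test through its vehicle arrays. The difference was -1.02 ± 0.50 (95% interval -2.23 to 0.20, adjusted p = 0.491 in limma, n = 3 each), and it was 1.06 with quantile normalization. In forebrain it was -3.94 and -4.18 with vehicle and -3.76, -3.73 and -3.02 with DHT. The difference was 0.56 ± 0.27 (95% interval -0.12 to 1.23, adjusted p = 0.247 in limma, n = 2 and 3), and it was -0.0060 with normexp. In forebrain 0% of 26361 genes passed, 27.4% had an unadjusted p under 0.05, and 47.3% had groups that did not overlap (23.1% higher, 24.2% lower). The difference between both effects, ovary minus forebrain, was -1.56 ± 0.81 (adjusted p = 0.310 in limma, where 0.0177% of genes passed).

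In forebrain, marker lists of several cell types differed in level between the vehicle and DHT arrays. Choroid plexus markers were lower with DHT in 4 of 4 tested, with a median of -3.95, and their summed level (log2) was 4.95 to 7.28 on vehicle and -1.19 to -0.66 on DHT arrays. Skeletal muscle markers were lower in 6 of 6 with a median of -3.63, with summed levels of 2.63 to 2.72 on vehicle and -0.60 to 0.07 on DHT arrays. Oligodendrocyte markers were lower in 6 of 6 with a median of -0.63, and neuronal markers were higher in 7 of 7 with a median of 0.62. Hypothalamic markers were lower in 6 of 7 with a median of -3.13, but their summed level was 2.11 on one vehicle array and 6.43 on the other, against 1.95 to 2.08 on DHT arrays, so that one vehicle array carried this value. None of these genes passed the test, and their part in the values of Pgr was not tested.

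Nr3c1 was well above background on every array, and highest in forebrain by both probes. With probe A_44_P477376 its level ran from 1.55 to 1.85 in forebrain, 0.94 to 1.52 in prostate, 0.84 to 1.18 in ovary and 0.50 to 1.07 in skin. Relative to forebrain, prostate was at -0.46 ± 0.12, ovary at -0.56 ± 0.12 and skin at -0.75 ± 0.12 on the log2 scale (adjusted p = 0.00315, 6.6e-04 and 3.1e-05 in limma), and its arrays did not overlap those of the other tissues. Prostate exceeded skin by 0.29 ± 0.11 (adjusted p = 0.0389), while ovary did not differ from prostate or skin beyond the spread (adjusted p = 0.500 and 0.193). The order below forebrain depends on the probe: with A_43_P15242 prostate minus skin was -0.14 and ovary minus skin -0.37. Both probes correlated at 0.747 over the 23 arrays, a description only, since arrays of 4 tissues are not alike.

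In prostate Nr3c1 was 1.37, 1.52 and 1.19 with vehicle and 0.94, 1.02 and 0.95 with DHT. The groups did not overlap, and the difference was -0.39 ± 0.15 (95% interval -0.75 to -0.03), a fitted 1.31-fold, which did not pass (adjusted p = 0.154 in limma, n = 3 each) except with array weights (adjusted p = 0.0499). The other probe gave -0.34 ± 0.17. Elsewhere the difference was 0.16 ± 0.22 in ovary by the probe used in prostate (interval -0.36 to 0.69). By A_43_P15242, the brighter probe in skin and forebrain, it was 0.15 ± 0.31 in skin and -0.16 ± 0.15 in forebrain. Their intervals were -0.59 to 0.88 and -0.55 to 0.23. In skin A_44_P477376 gave 0.09 ± 0.26. In forebrain the probes differed in sign, at -0.16 and 0.07.

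Nr3c2 separated prostate and forebrain from skin and ovary by one of its probes. With probe A_43_P15261 it ran from 1.49 to 2.52 in prostate (median 1.74) and from 0.99 to 1.91 in forebrain (1.57), against -2.26 to -0.11 in skin (-1.02) and -1.81 to -0.77 in ovary (-1.46), with every array above background. No array of prostate or forebrain overlapped one of skin or ovary. Prostate exceeded ovary by 3.28 ± 0.26 and skin by 2.98 ± 0.26 (adjusted p = 1.2e-08 and 2.1e-08 in limma), a fitted 9.69-fold and 7.87-fold. Relative to forebrain, ovary was at -2.95 ± 0.27 and skin at -2.65 ± 0.27 (adjusted p = 5.3e-08 and 1.3e-07 in limma). Prostate and forebrain did not differ beyond the spread (0.33, 95% interval -0.25 to 0.90), nor did ovary and skin (-0.30, interval -0.84 to 0.24). Probe A_44_P158441 was well above background on 4 of 6 prostate, 4 of 5 forebrain, 1 of 6 skin and 2 of 6 ovary arrays, and with it these 4 differences no longer passed. Of the ovary arrays it was bright only on vehicle arrays 1 and 3, those of narrow range, at -2.81 and -2.17 against -7.53 on vehicle array 2. The probes correlated at 0.435 over 23 arrays.

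**Figure D3:**
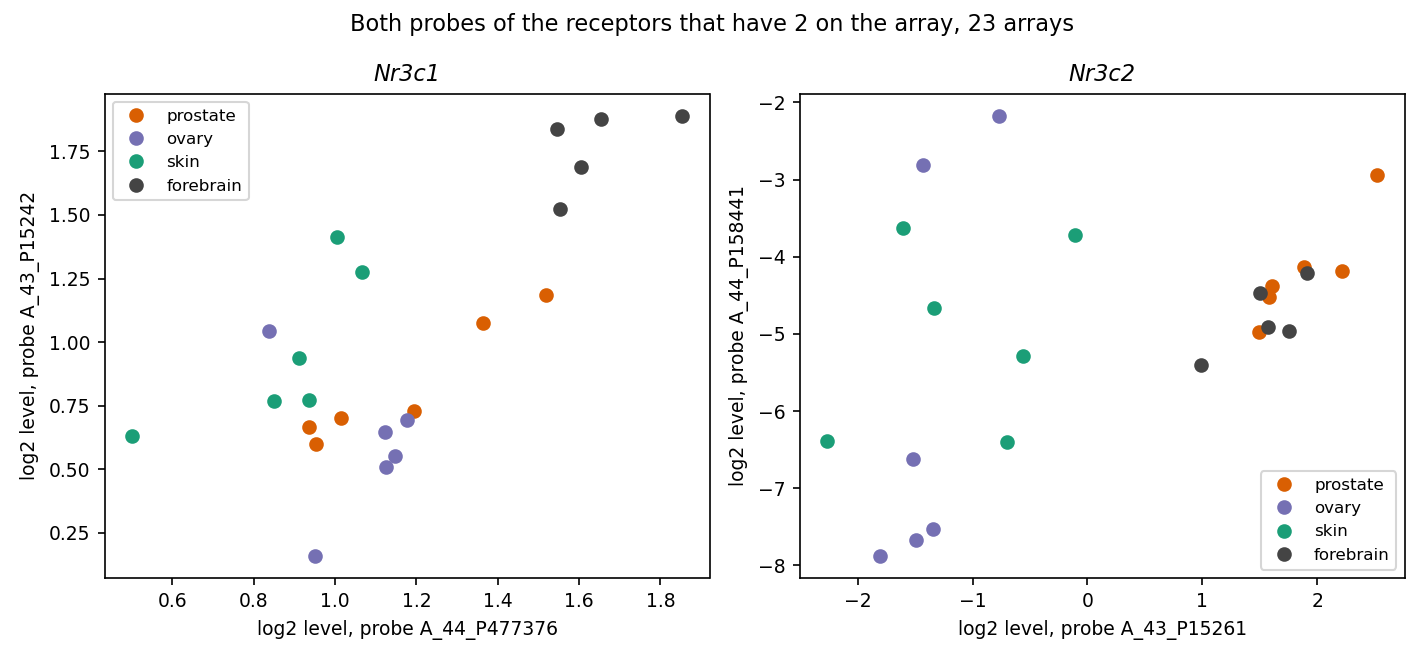
Level of Nr3c1 and Nr3c2 by each of their 2 probes on the 23 arrays, as log2 relative to the 75th percentile of the array, with tissues in colour. For Nr3c1 the forebrain arrays lie highest on both axes, and for Nr3c2 the horizontal axis separates prostate and forebrain from skin and ovary while the vertical axis does not.

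In prostate Nr3c2 was 1.88, 2.21 and 2.52 with vehicle and 1.58, 1.60 and 1.49 with DHT. Every DHT array lay below every vehicle array. The difference was -0.65 ± 0.20 (95% interval -1.12 to -0.18), a fitted 1.57-fold, and did not pass (adjusted p = 0.0909 in limma, n = 3 each) except with array weights (adjusted p = 0.0443). The second probe gave -0.87 ± 0.37, but was well above background on 3 of 3 vehicle and only 1 of 3 DHT arrays. It thus entered the test through its vehicle arrays and is no independent support. In ovary the groups did not overlap either, at -1.43, -1.35 and -0.77 with vehicle and -1.49, -1.81 and -1.52 with DHT, with a difference of -0.43 ± 0.28 (adjusted p = 0.570) that was 0.26 with the array median. In skin the difference was 0.76 ± 0.52 and in forebrain 0.02 ± 0.30, both with overlapping groups.

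**Figure D4:**
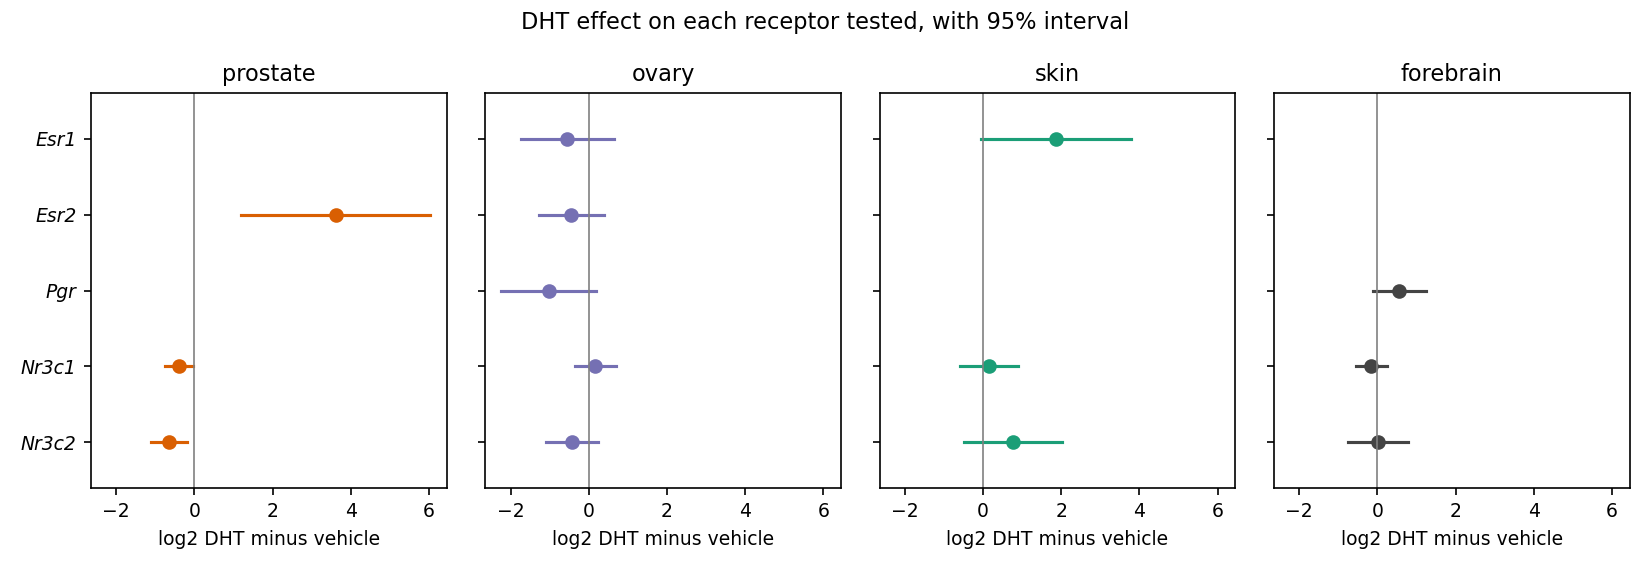
Difference between DHT and vehicle on the log2 scale for each receptor that was well above background on at least 3 arrays of a tissue, with 95% intervals from limma (3 arrays each, 2 vehicle arrays in forebrain). Nr3c1 is shown by probe A_44_P477376 in prostate and ovary and by A_43_P15242 in skin and forebrain. The intervals of Esr2, Nr3c2 and Nr3c1 in prostate leave out 0 before adjustment over all genes, and no receptor passed after it.

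Over the 4 tissues, 14 combinations of receptor and tissue were tested for DHT and 0 passed in limma, with 3 at an unadjusted p under 0.05, all in prostate, where 27.6% of genes were. For Nr3c1 and Nr3c2, kept in all tissues, the difference of the DHT effect between tissues did not pass a moderated F test (adjusted p = 0.202 and 0.177, with 4.89% of 20737 genes passing), nor did their mean effect over tissues (-0.01 ± 0.09 and -0.08 ± 0.21, with 0.318% passing). Over genes kept on at least 3 of 23 arrays, Esr2 had F = 4.17 (unadjusted p = 0.0218, adjusted 0.187, with 1.75% of 33832 genes passing) and a mean effect over tissues of 0.86 ± 0.53 (adjusted p = 0.614 in limma, with 0.0621% passing). Both values include skin and forebrain, where Esr2 was well above background on 0 of 6 and 2 of 5 arrays.

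Genes that act with these receptors were described from lists drawn up with earlier results of these data known, in prostate, since no gene passed in the other tissues as fitted. That count rose to 7578 in ovary without vehicle array 2, which leaves only the narrow-range vehicle arrays 1 and 3, and to 500 in forebrain with normexp. The list counts in prostate stand beside the 9.64% of genes passing and a median of 0.06 over all genes. Of the receptor chaperones, 2 of 15 tested rose and 0 fell (median 0.18): Fkbp5, a co-chaperone of Hsp90 and a known androgen and glucocorticoid target, by 2.52 ± 0.21 (2 DHT arrays after outlier spots were left out), and Dnaja1, an Hsp40 co-chaperone, by 1.83 ± 0.27. Hsp90aa1 and Hsp90ab1, the Hsp90 chaperones themselves, differed by 0.09 ± 0.22 and 0.37 ± 0.29 (the latter with 2 DHT arrays). Of the co-activators and co-repressors, 1 of 16 rose, the arginine methyltransferase Prmt1 (0.60 ± 0.14), and Ncoa2 was at 0.15 ± 0.52. Of the membrane and non-classical receptors, 1 of 4 rose, the progestin receptor Paqr5, from 1.03 to 3.46 (2.43 ± 0.17, adjusted p = 0.00331 in limma), while Pgrmc1 was at 0.21 ± 0.15 and Gper1, a membrane estrogen receptor, was tested only in skin (0.36 ± 0.70) and forebrain (-0.52 ± 0.37).

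Known targets of the receptors changed in both directions in prostate. Of the glucocorticoid receptor targets, 3 of 20 rose and 2 fell (median 0.12). Those that rose included Fkbp5, the sulfotransferase Sult1a1 (1.08 ± 0.20) and the transcription factor Klf15 (1.03 ± 0.20), and Cebpd, another transcription factor, fell by 1.37 on the log2 scale. Per1, Tsc22d3, Sgk1 and Klf9, targets often used as readouts of the receptor, did not pass, at 0.81 ± 0.26, 1.04 ± 0.33, 0.32 ± 0.28 (2 vehicle arrays) and -0.56 ± 0.16. Of the mineralocorticoid receptor and sodium transport genes, 3 of 13 rose and 1 fell (median 0.32). The deubiquitinase Usp2 rose by 1.86 ± 0.20, the sodium pump subunit Atp1b1 by 1.38 ± 0.27 (2 DHT arrays) and the sodium channel subunit Scnn1g by 1.18 ± 0.18, and the peptide Edn1 fell by 2.07, while the channel subunit Scnn1a was at 0.06 ± 0.15. Of the estrogen receptor targets, 1 of 14 rose and 2 fell (median -0.13): the growth factor Igf1 by 1.28 ± 0.22, against falls of Krt19 and of the transcription factor Myc (-0.63 ± 0.13). Of the progesterone receptor targets, 3 of 13 rose and 1 fell (median 0.17): the peptide Edn2, the nuclear receptor Pparg and the growth factor Vegfa rose by 1.16 ± 0.15, 1.16 ± 0.24 and 0.92 ± 0.19, and the transcription factor Bhlhe40 fell by 1.79. The lists do not tell which receptor acted.

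Of the steroid-metabolizing enzymes, 2 of 11 rose and 0 fell in prostate (median 0.35): Hsd17b7 by 1.74 ± 0.26 and Akr1c14, an enzyme that reduces DHT, by 1.59 ± 0.36, against a vehicle group in which 1 of 3 arrays was well above background. Hsd11b2, which shields Nr3c2 from corticosterone, was lower with DHT in all 4 tissues without passing, at -1.19 ± 0.49 in prostate, -0.86 ± 0.49 in ovary, -1.85 ± 0.51 in skin and -1.73 ± 0.32 in forebrain (adjusted p = 0.175, 0.531, 0.752 and 0.0728 in limma), with groups that overlapped only in ovary. Over all genes, 35.8% in prostate, 12.3% in skin and 47.3% in forebrain had groups that did not overlap. DHT and slide cannot be told apart in any of the tissues. Hsd11b1, which regenerates corticosterone, was at 0.19 ± 0.30 in prostate, 0.01 ± 0.54 in ovary, 0.41 ± 0.45 in skin and -0.29 ± 0.14 in forebrain. Of the other nuclear receptors, 3 of 23 rose and 3 fell in prostate (median -0.08). Pparg and the immediate early gene Nr4a1 (1.14 ± 0.26) were among those that rose, and Ppard (-1.31 ± 0.24) and the clock repressor Nr1d1 (-1.22 ± 0.27) among those that fell. Ncoa1, Ncoa3, Nrip1, Greb1 and Fkbp4 had no probe matched by symbol.

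The genes whose level over the 23 arrays was most like that of each receptor were taken by Pearson correlation among 5895 genes with a symbol kept in all tissues. They included Rcn3 (0.920) and Nr0b2 (0.919) for Esr1, and were Mccc1 (0.863), Scrn2 (0.859) and Calu (0.850) for Esr2 and Tac3 (0.926), Slc4a3 (0.910) and Bcat1 (0.909) for Pgr. For Nr3c1 they were Calm2 (0.917), Pllp (0.912) and Bloc1s2 (0.908), and for Nr3c2 Cbx7 (0.956), Rab4a (0.937) and Flcn (0.931). The points share 4 tissues, so these values describe tissue patterns. Tac3, which encodes a tachykinin peptide of neurons, had a mean level of 3.38 in forebrain, -0.02 in ovary, -2.15 in skin and -3.17 in prostate.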

How the data were processed

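Each deposited file held the linear spot intensity of 1 one-colour array, as scanned and extracted with Agilent's software, whose version is 10.5.1.1 in the headers and 10.1 in the submitters' processing notes, which also name limma. The processed signal had been background-subtracted, per the file headers, and carried no scaling between arrays. Control and outlier spots were left out. Probes were named by accession through a table of GRCr8, used for names only (10813 probes, 8945 symbols). The log2 processed signal minus the 75th percentile of each array was tested with limma 3.58.1 in R 4.3.3 (lmFit, eBayes, Benjamini-Hochberg, threshold 0.05) on genes well above background on at least 3 arrays, with the brightest probe per gene. Tissues were fitted alone for DHT; levels and differences of effects came from all 23 arrays with slide as a random block. Bounds ("at least") hold the dimmer group at each array's lowest signal well above background of any probe, under the reported processing only. They are not a limit of the single probe. Errors are standard errors. The fits were tested on simulated data. Normexp used median spot signals. The number of arrays limits precision, and p-values cover the variation among these arrays alone. Members and lists were chosen with earlier results of these data known; genes named were all receptors with all probes, 18 genes fixed by name, up to 4 genes per list and tissue with the largest changes among those passing without overlap, and the 3 genes most like each receptor. The alternatives were other normalizations, background correction, filters, probes, weights, blocks, groups and single arrays left out. The androgen receptor and 1 of the genes most like Esr1 are not reported here.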

Additional observations from a re-analysis of the deposited data

Results flagged for a closer look

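Pgr moved up on every DHT array of forebrain (0.56) and down on every DHT array of ovary (-1.02) relative to every vehicle array of the same tissue. Over all genes 47.3% in forebrain and 13.8% in ovary had groups that did not overlap. The Pgr difference was 1.06 in ovary with quantile normalization and -0.0060 in forebrain with normexp. In ovary 3 of 3 vehicle arrays and 1 of 3 DHT arrays were well above background. Pgr thus entered the ovary test through its vehicle arrays, and the order of the ovary groups is no independent support. The test of the difference between both effects gave an adjusted p of 0.310 in limma.

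Forebrain vehicle array 3, left out because its label says that it failed quality control, had 4 receptor probes well above background and above both other forebrain vehicle arrays. Esr1 was at -2.62 there, Esr2 at -0.94, Pgr at -3.31 and the second Nr3c2 probe at -0.25. On that array 98.4% of probes were well above background and the interquartile range of levels was 1.92.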

How the results depend on the processing

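The number of receptors changed by DHT in prostate was 0 as reported, 1 with quantile normalization, the array median or all tissues in 1 fit, 3 with array weights, and 0 to 1 without single arrays. It stayed at 0 in the other tissues. With array weights 1 receptor, Nr3c1, differed in its DHT effect between tissues. With the replicate number as a block, the DHT effect on Esr2 in prostate was 3.62 (adjusted p = 0.141 in limma); samples of one number did not deviate together (correlations of -0.43 to 0.01), so the numbers do not pair them, and the block gave 0 genes passing in prostate against 2288, with 4800 at an unadjusted p under 0.05.

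Among refitted DHT effects on receptors, 190 kept sign and side of the threshold, 7 newly passed and 20 turned sign, none of these passing. In ovary these were Pgr 1.06 and Esr1 0.54 with quantile normalization, Nr3c2 0.26, Esr1 0.13 and Esr2 0.24 with the array median, and Esr2 0.045 and Nr3c1 -0.0065 without vehicle arrays 1 and 3. In skin Nr3c1 was -0.015 with normexp and -0.042 to 0.34 without single arrays. In forebrain Nr3c2 was -0.0049 with quantile normalization, -0.013 with array weights, -0.17 by its second probe, -0.0032 in the fit of all tissues and -0.16 to 0.30 without single arrays; Nr3c1 was 0.071 by its other probe, 0.091 in the fit of all tissues and 0.36 with vehicle array 3; and Pgr was -0.0060 with normexp. The mean effect over tissues turned with the array median, to 0.18 for Nr3c1 and 0.11 for Nr3c2.

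Among refitted tissue differences 271 kept sign and side, 18 no longer passed, 6 newly passed and 17 turned sign. Under normexp prostate minus ovary was 0.28 for Pgr, prostate minus skin -0.21 for Esr2, ovary minus skin -1.78 for Pgr, -1.11 for Esr1 and -0.10 for Esr2, and skin minus forebrain 0.97 for Pgr and 1.79 for Esr2; the offset of 50 stands beside a 75th percentile as low as 55.4 on skin arrays. With quantile normalization Nr3c1 prostate minus ovary was -0.036 and Pgr prostate minus skin 0.0021. Esr2 skin minus forebrain was 0.030 with no slide block and 0.030 over DHT arrays. Nr3c2 ovary minus skin was 0.29 over vehicle arrays. Over DHT arrays Esr2 prostate minus ovary was 0.69, Nr3c1 prostate minus ovary -0.17 and Esr1 ovary minus skin -0.023. The other Nr3c1 probe gave -0.14 for prostate minus skin and -0.37 for ovary minus skin. The cause of these changes was not tested.

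All-gene counts moved too: prostate gave 1459 with the array median, 648 with normexp, 619 with no filter, 4484 with array weights, 1193 in the fit of all tissues and 574 to 2746 without single arrays. Ovary, at 0 as reported, gave 15 with quantile normalization, 217 with the array median, 484 in the fit of all tissues and 0 to 7578 without single arrays. The last was without vehicle array 2, which leaves only the narrow-range vehicle arrays 1 and 3. Skin, at 0, gave 1 in the fit of all tissues. Forebrain, at 0, gave 16 with the array median, 500 with normexp, 26 in the fit of all tissues and 0 to 49 without single arrays. Receptors below background have a bound only, and 3 arrays a group limit the precision.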
